A study of Papio anubis with 40 samples.

Results

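The fragments described here are pieces of the Met-CAT transfer RNA found in baboon serum: 5' fragments that begin at the first base of the tRNA with G in place of A at base 6, and internal fragments that begin at base 16. They were chosen by the code in the fragment name, which stands for the sequence, with a length of up to 36 nt. The rule found 59 of 58587 fragments, 7 of them 5' and 52 internal. Both named fragments were selected on measured values: the 5' fragment tRF-30-FPR8LPMBQ4NK for its difference between months 3 and 0, and the internal fragment tRF-25-MBQ4NKKQBR for its difference between months 15 and 0. Those 2 differences are therefore given as descriptions that support nothing.

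Serum (0.5 mL) was drawn from 8 olive baboons (Papio anubis) before inoculation of menstrual tissue (month 0) and at months 3, 6, 9 and 15, which gave 40 libraries with 8 animals at every month. All animals are labelled as having endometriosis and as not treated. There was no animal without inoculation, so time since inoculation cannot be told apart from age, repeated draws or anything else that differed between the draws.

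Transfer RNAs carry amino acids to the ribosome, and their anticodon reads the codon of the messenger RNA. The Met-CAT tRNAs read AUG: the initiator tRNA starts every protein, and the elongator tRNA inserts methionine within it. Ribonucleases such as angiogenin cleave tRNAs in or near the anticodon loop, and the resulting pieces circulate in blood.

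The sequences are shown because they define the 2 sets and show which of them hold the anticodon. The parent was rebuilt from overlapping fragments of the table and holds 75 nt with its CCA end; its capitals mark the anticodon, at bases 33 to 35. In both 30 nt fragments the capital marks base 6, and in the 25 nt fragment the capitals mark the anticodon.
initiator Met-CAT tRNA read from the fragments: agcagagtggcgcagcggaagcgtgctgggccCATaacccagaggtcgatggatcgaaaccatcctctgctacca
tRF-30-FP18LPMBQ4NK: agcagAgtggcgcagcggaagcgtgctggg
tRF-30-FPR8LPMBQ4NK: agcagGgtggcgcagcggaagcgtgctggg
tRF-25-MBQ4NKKQBR: cggaagcgtgctgggccCATaaccc
tRF-18-MBQ4NKDJ: cggaagcgtgctgggccc
tRF-17-MBQ4NKJ: cggaagcgtgctgggcc
tRF-16-MBQ4NKD: cggaagcgtgctgggc

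The label Met-CAT was checked against the parent. Its anticodon loop (bases 31 to 37) holds CAT, the 7 positions of its acceptor stem all pair, and 3 consecutive G-C pairs stand next to the anticodon loop, a feature of initiator tRNAs. RefSeq lists 17 genes of the symbol TRNAM-CAU in the baboon assembly, 9 of 72 nt and 8 of 73 nt, but holds no sequence for them here, so the fragments were not assigned to a gene.

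The term anticodon-spanning held for only part of the internal set. Of the 52 internal fragments 37 span the anticodon, and they hold 882 of 3218 counts (27.4%). The 3 most abundant, tRF-18-MBQ4NKDJ (1225 counts), tRF-16-MBQ4NKD (573 counts) and tRF-17-MBQ4NKJ (343 counts), end at bases 33, 31 and 32 and do not hold a whole anticodon. The next was tRF-25-MBQ4NKKQBR (240 counts), which ends at base 40. The fifth, tRF-19-MBQ4NK12 (176 counts), ends at base 34. Base 16 lies in the D loop (bases 14 to 20). Among fragments of this tRNA that start between bases 10 and 22, 40.3% of counts started at base 16, 23.8% at base 15, 15.2% at base 14 and 8.74% at base 13.

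The internal set was thin outside these fragments. In it 27 of 52 fragments had a total count of 1 over all libraries, 18 matched the parent in every base and held 3173 of the 3218 counts, and the other 34 differed from it by 1 base. At the length limit, tRF-36-MBQ4NKKQBRFKWE0 had 12 counts, and 7 longer fragments from base 16, left out by the rule, had 166 counts together. The 5' set had 771 counts and lengths of 27 to 33 nt. Its counts were 69.4% from the 30 nt fragment, 23.7% from the 29 nt fragment and 5.45% from the 31 nt fragment, so nearly all ended before the anticodon loop or at its first base.

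All 7 5' fragments carry the change A6G (positions counted from 1 at the 5' end of the tRNA, the parent's base first), and none matched the parent in full. The same 5' fragment with A at base 6, tRF-30-FP18LPMBQ4NK, had 91085 counts, and 17 main-sequence 5' fragments of up to 36 nt had 125548. The A6G fragment amounted to 0.587% of it. Of 90 possible single-base changes to the 30 nt fragment 88 were listed, and A6G ranked 9th by count. The 3 changes at base 9 led: G9C reached 12.1% of the main sequence, G9T 11.5% and G9A 8.41%. Outside base 9 the most frequent change was A4C, at 0.971%. The 6 A-to-G changes ranged from 0.325% to 0.655%. The origin of A6G was not tested.

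Library totals ran from 198840 to 6245450 counts, with a median of 3269163.5. Values are given as CPM, counts divided by the TMM-scaled library size and set to a common scale, where TMM scaling assumes that most fragments do not differ between libraries. Where a fragment had no count, up to 3 counts could have been missed, which corresponds to 0.568 to 7.82 CPM depending on the library. The highest of these limits belongs to the month 0 library of PA8001, and the next was 2.17 CPM. Of the libraries, 3 stood apart: those of PA8001 and PA8003 at month 15 and that of PA8001 at month 0 had a median Spearman rho with the other libraries of 0.628, 0.646 and 0.637, against 0.764 to 0.876 for the others.

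**Figure D1:**
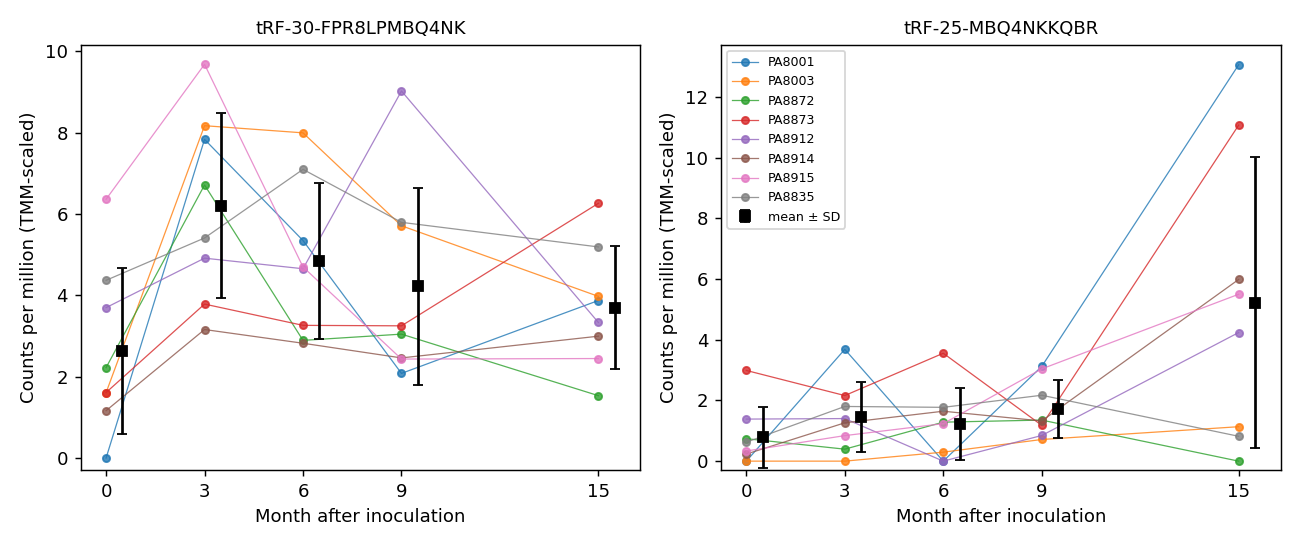
Level of the 2 named fragments in each library, in CPM, by month after inoculation. Each coloured line is 1 animal and black squares are the mean ± SD of 8 animals. tRF-30-FPR8LPMBQ4NK had its highest median at month 3 (6.06 CPM) and tRF-25-MBQ4NKKQBR at month 15 (4.87 CPM).

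The 5' fragment tRF-30-FPR8LPMBQ4NK had its lowest median before inoculation and its highest at month 3, but none of its differences passed the test. Its lowest, median and highest values were 0, 1.92 and 6.36 CPM at month 0. At month 3 they were 3.16, 6.06 and 9.68 CPM. At month 6 they were 2.82, 4.67 and 7.99 CPM. The ranges of these months overlap, although every animal was higher at month 3 than at its own month 0. For PA8001 that month 0 value is 0 counts, where up to 7.82 CPM could have been missed. At month 9 the values were 2.08, 3.15 and 9.02 CPM, and at month 15 they were 1.53, 3.60 and 6.26 CPM. These rest on few reads, with a median of 6.5 counts per library at month 0 and 15 at month 3.

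Differences were taken from edgeR's quasi-likelihood test with the animal as a block, adjusted by Benjamini-Hochberg over 2447 fragments that passed a filter on low counts. Of the members, 1 of 7 5' fragments and 4 of 52 internal ones passed that filter, so the other 54 have no test. The log2 difference of tRF-30-FPR8LPMBQ4NK from month 0 was 1.17 ± 0.346 (SE) at month 3, with 8 of 8 animals higher. It was 0.79 ± 0.347 at month 6 (edgeR adjusted p = 0.352, 7 of 8 higher), 0.59 ± 0.350 at month 9 (edgeR adjusted p = 0.649, 7 of 8 higher) and 0.45 ± 0.357 at month 15 (edgeR adjusted p = 0.492, 5 of 8 higher). Between months 15 and 3 it was -0.73 ± 0.340 (edgeR adjusted p = 0.134, lower in 7 of 8). PA8001 is counted as higher than month 0 each time, but it had 0 counts there, where up to 7.82 CPM could have been missed. Its direction is therefore uncertain. The month 0 libraries enter all differences from month 0, so these are not independent of the one that selected the fragment. The difference between months 15 and 3 shares the month 3 libraries with that selection, so it too is a description only.

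The other 5' fragments of the same tRNA were measured beside it. The main-sequence fragment tRF-30-FP18LPMBQ4NK had medians of 520 CPM at month 0, 795 at month 3, 657 at month 6, 676 at month 9 and 659 at month 15. Of 23 tested 5' fragments that differ from the main sequence by 1 base other than A6G, among them A6C, 23 had a log2 difference above 0 at month 3, with a median of 0.61, and 0 passed. Of 5 tested main-sequence fragments 4 lay above 0, with a median of 0.53. Over all 2447 fragments 60.9% lay above 0 and the median was 0.10, and over 423 fragments of 30 nt the median was 0.19. The share of A6G against the main 30 nt sequence was 0.459% at month 0, 0.712% at month 3, 0.643% at month 6, 0.535% at month 9 and 0.548% at month 15 when counts were summed over animals. Per library it ranged from 0 to 1.58% at month 0 and from 0.318 to 1.41% at month 3, so the months overlap.

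Across the 40 libraries the fragments most like tRF-30-FPR8LPMBQ4NK were other single-base variants of the same 5' fragment. Among 2442 fragments compared by Spearman's rho of log2 CPM, the closest were tRF-30-FS18LPMBQ4NK (A4C, rho 0.835), tRF-30-FP18LPM0Q4NK (A20G, rho 0.822) and tRF-30-FP18LPMBQ43K (rho 0.801). Its rho with the main sequence itself was 0.318, and with tRF-25-MBQ4NKKQBR -0.06. The A6G share followed the summed share of the other changes outside base 9 (rho 0.692) more than that of base 9 (rho 0.214). These points share libraries, depth and the main sequence, and are descriptions only.

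The internal fragments were highest at month 15. For tRF-25-MBQ4NKKQBR the lowest, median and highest values were 0, 0.479 and 2.99 CPM at month 0. At month 3 they were 0, 1.33 and 3.69 CPM. At month 6 they were 0, 1.26 and 3.56 CPM. Months 3 and 6 overlap month 0 almost wholly. At month 9 they were 0.714, 1.34 and 3.12 CPM, and at month 15 they were 0, 4.87 and 13.1 CPM. At month 15, 5 animals stood above every value of the earlier months: PA8001 (13.1 CPM), PA8873 (11.1), PA8914 (5.99), PA8915 (5.50) and PA8912 (4.24). The other 3 stayed within the earlier range, PA8003 at 1.14, PA8835 at 0.819 and PA8872 at 0 CPM. These values rest on fewer reads than those of the 5' fragment at months 0 to 9, with medians of 1.5, 4.5, 4.5, 4 and 16 counts per library at months 0, 3, 6, 9 and 15 and no count in 2, 1, 2, 0 and 1 libraries.

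The log2 difference of tRF-25-MBQ4NKKQBR from month 0 was 0.58 ± 0.638 at month 3, 0.50 ± 0.637 at month 6 and 0.99 ± 0.639 at month 9 (edgeR adjusted p = 0.999, 0.81 and 0.649). It was 2.29 ± 0.603 at month 15 (7 of 8 higher), the difference that selected it. Month 15 also exceeded month 3 by 1.71 ± 0.566 (edgeR adjusted p = 0.0468, 6 of 8 higher) and month 6 by 1.79 ± 0.578 (edgeR adjusted p = 0.0211, 6 of 8 higher). Against month 9 the difference was 1.31 ± 0.567 (edgeR adjusted p = 0.0736, 6 of 8 higher). These comparisons share the month 15 libraries with the one that selected the fragment. Its medians at months 0 to 9 were at most 1.34 CPM, so it passed the filter on low counts largely through month 15. With every library of PA8001 or of PA8873 left out it did not pass that filter. The values against months 3, 6 and 9 are therefore descriptions only. With PA8001 and PA8003 left out at month 15 the differences from months 3 and 6 were 1.44 and 1.58, and neither passed (edgeR adjusted p = 0.278 and 0.114).

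The 18 nt fragment tRF-18-MBQ4NKDJ, the most abundant internal one, also had its highest median at month 15 and does not hold the anticodon. Unlike tRF-25-MBQ4NKKQBR it had lower medians at months 3 and 6 than at month 0. Its lowest, median and highest values were 3.95, 8.81 and 14.9 CPM at month 0. They were 3.50, 5.45 and 10.5 CPM at month 3, and 1.07, 4.63 and 22.8 CPM at month 6. They were 3.21, 7.76 and 28.1 CPM at month 9, and 4.22, 17.3 and 46.9 CPM at month 15. The months overlap, and the highest library of month 15 lies above all others. Month 15 exceeded month 3 by a log2 of 1.53 ± 0.464 (edgeR adjusted p = 0.0392, 7 of 8 higher) and month 6 by 1.56 ± 0.463 (edgeR adjusted p = 0.0136, 7 of 8 higher). With PA8001 and PA8003 left out at month 15 these differences were 1.23 and 1.26, and neither passed (edgeR adjusted p = 0.265 and 0.106). The differences from month 9 (1.10, edgeR adjusted p = 0.0622) and month 0 (1.15, edgeR adjusted p = 0.156) did not pass.

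The 16 nt fragment tRF-16-MBQ4NKD, which ends at the first base of the anticodon loop, had medians of 4.26 CPM at month 0, 3.40 at month 3, 1.58 at month 6, 3.20 at month 9 and 11.3 at month 15. Its month 15 values ran from 2.68 to 14.8 CPM and its month 6 values from 0 to 5.93 CPM. Month 15 exceeded month 6 by a log2 of 2.46 ± 0.474 (edgeR adjusted p = 0.00447, 8 of 8 higher) and month 9 by 1.56 ± 0.465 (edgeR adjusted p = 0.0154, 6 of 8 higher). With PA8001 and PA8003 left out at month 15 the difference from month 6 was 2.28 (edgeR adjusted p = 0.0308) and the one from month 9 was 1.42 and did not pass (edgeR adjusted p = 0.0906). Against months 3 and 0 the differences were 1.29 and 1.30 (edgeR adjusted p = 0.051 and 0.119). The 17 nt fragment tRF-17-MBQ4NKJ had medians of 2.88, 2.41, 1.68, 1.60 and 3.82 CPM at months 0, 3, 6, 9 and 15, and none of its comparisons passed.

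**Figure D2:**
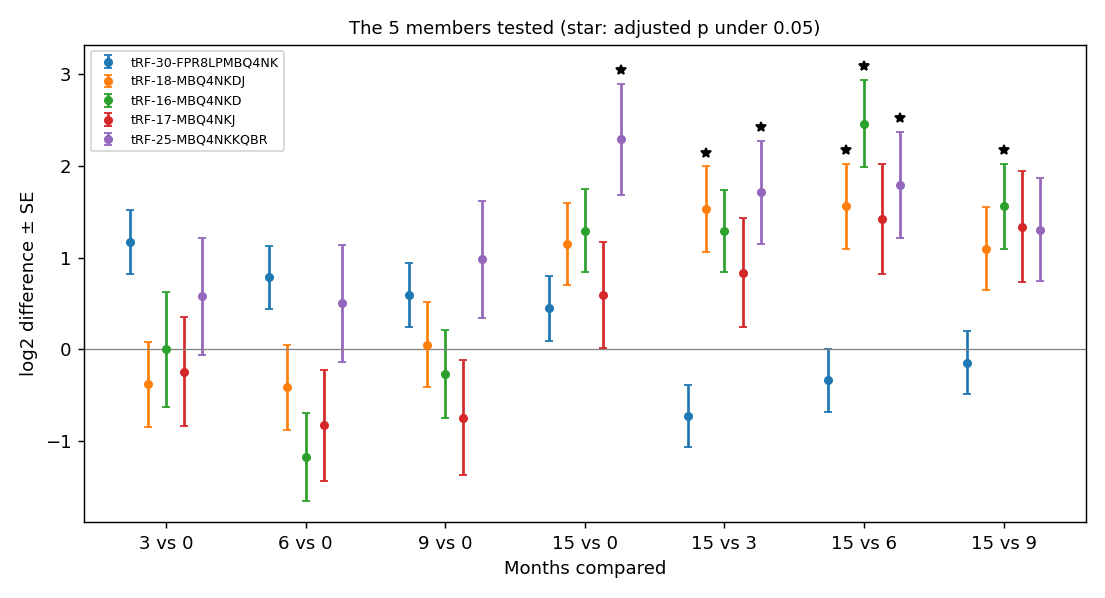
Log2 differences ± SE of the 5 tested members in 7 comparisons of months, from edgeR with the animal as a block. Stars mark an adjusted p under 0.05. The 7 stars all belong to internal fragments and to comparisons of month 15, but only 1 5' member was tested beside 4 internal ones. The star of tRF-25-MBQ4NKKQBR for month 15 against month 0 marks the difference that selected it. Its stars against months 3 and 6 share the month 15 libraries.

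Against the share of all 2447 fragments called, these counts read as follows. Against month 0, 1 of 5 tested members was called at month 15, the selected one, beside 2.37% of all fragments. Month 15 against month 3 called 2 of 5 members beside 11.1% of all. Month 15 against month 6 called 3 of 5 beside 26.6%, and month 15 against month 9 called 1 of 5 beside 30.6%, a share near the background. Those called against months 3 and 6 include tRF-25-MBQ4NKKQBR, which passed the filter on low counts largely through month 15. In the other 6 comparisons edgeR called 0 members and 0% of all fragments (months 3, 6 and 9 against month 0; 6 and 9 against 3; 9 against 6). At an unadjusted p under 0.05 those held 1, 2, 0, 1, 0 and 0 of the 5 members, beside 2.98%, 12.7%, 8.21%, 1.80%, 2.29% and 2.00% of all fragments. The 1 at month 3 against month 0 is tRF-30-FPR8LPMBQ4NK, which was selected on that difference. It is also 1 of the 2 at month 6 against month 0, which shares the month 0 libraries. DESeq2 and limma-voom called 0 members in each of the 6 as well. The shares of all fragments called by these 2 methods are not given here, so their zeros are not read as a result about the members.

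At month 15 fragments of the internal members' lengths had medians above 0, and those of 30 nt had medians below 0. Against month 6 the median log2 difference of 31 tested fragments of 25 nt was 0.96, with 10 called. It was 1.19 for 44 fragments of 18 nt (15 called), 1.48 for 33 of 17 nt (19 called) and 1.41 for 44 of 16 nt (20 called). For 423 fragments of 30 nt it was -0.33, with 58 called. Of 4 tested fragments of this tRNA with other internal starts, 2 were called higher against month 6, with a median of 1.33. Some 5' fragments of this tRNA were also higher at month 15. The 31 nt main-sequence fragment tRF-31-FP18LPMBQ4NKD exceeded month 6 by a log2 of 1.81 ± 0.553 (edgeR adjusted p = 0.0164, 8 of 8 higher) and month 9 by 1.76 ± 0.571 (edgeR adjusted p = 0.0216, 7 of 8 higher). Of the 23 single-base 5' variants 2 were called higher against month 6 and 1 against month 9, with medians of -0.21 and -0.12 over the list. The fragments most like tRF-25-MBQ4NKKQBR over the 40 libraries were tRF-29-QSZ34KRQ59JM (rho 0.609), tRF-19-P5QK111Y (rho 0.608) and tRF-32-RK9P4P9L5HMVQ (rho 0.606), none from the lists of this tRNA.

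Summed over all members, the 5' set had its highest mean at month 3 and the internal set at month 15. Of the 5' counts 69.4% came from tRF-30-FPR8LPMBQ4NK, which was selected on its difference between months 3 and 0. The internal set holds tRF-25-MBQ4NKKQBR, selected on months 15 and 0, so both sums are descriptions only. The 7 5' fragments had a mean of 4.37 ± 3.07 CPM (SD, n = 8) at month 0, 7.91 ± 2.62 at month 3, 6.61 ± 2.33 at month 6, 6.04 ± 3.04 at month 9 and 6.13 ± 2.71 at month 15. The 52 internal fragments had 20.2 ± 7.23 CPM at month 0, 19.1 ± 7.21 at month 3, 16.2 ± 15.1 at month 6, 22.9 ± 16.3 at month 9 and 59.7 ± 34.4 at month 15. At month 15 the internal sum was above month 0 in 7 of 8 animals and the 5' sum in 5 of 8. Among those 5 is PA8001, which had 0 5' counts in its shallow month 0 library. PA8872 was the exception for the internal sum, with 15.7 CPM at month 15.

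Internal fragments with and without the whole anticodon were both higher at month 15. Those that span it had a mean of 3.82 ± 3.04 CPM (SD, n = 8) at month 0 and 18.8 ± 11.8 at month 15, higher in 8 of 8 animals. This sum holds tRF-25-MBQ4NKKQBR, which was selected on that same difference; without it the means were 3.04 ± 2.29 and 13.6 ± 8.5 CPM, also higher in 8 of 8. Those that end before it is complete had 16.4 ± 6.01 CPM at month 0 and 40.9 ± 23.1 at month 15, higher in 7 of 8. The spanning share of internal counts per library was 17.9 ± 12.3% at month 0, 24.1 ± 9.01% at month 3, 29.3 ± 9.54% at month 6, 28.2 ± 12.2% at month 9 and 30.8 ± 4.55% at month 15. The month 0 mean includes PA8001 at 0%, from only 5 internal counts. These spreads overlap, and the share was not tested.

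**Figure D3:**
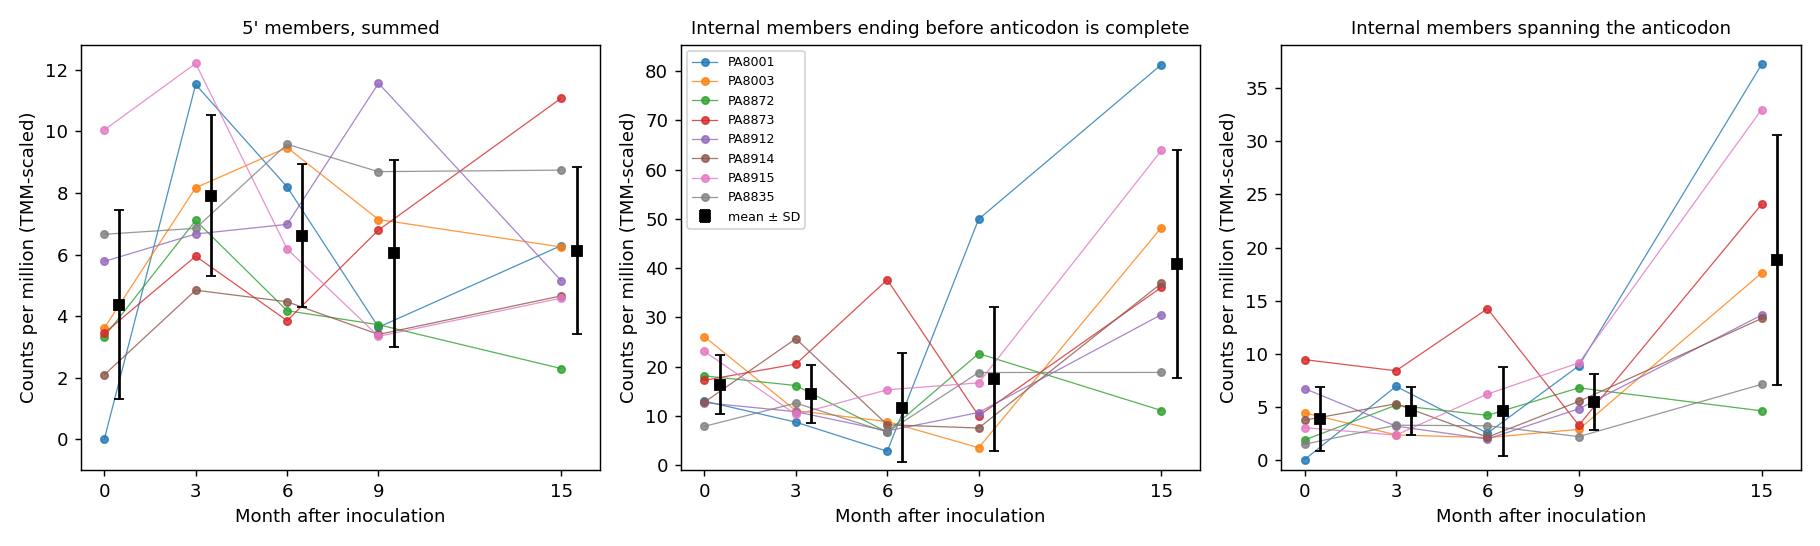
Summed CPM of the 5' members (left), of internal members that end before the anticodon is complete (middle) and of internal members that span it (right), by month. Lines are animals and black squares the mean ± SD of 8. Both internal sums are highest at month 15, and the 5' sum has its highest mean, 7.91 CPM, at month 3.

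Per library, internal counts were compared with 5' counts as the log2 of their ratio, with 0.5 added to each. The mean was 2.30 ± 1.01 (SD, n = 8) at month 0, 1.24 ± 0.888 at month 3, 1.00 ± 1.34 at month 6, 1.76 ± 1.40 at month 9 and 3.12 ± 0.920 at month 15. Relative to each animal's month 0 the ratio was lower by a log2 mean of -1.06 ± 1.17 (SD) at month 3, with 7 of 8 animals lower, and by -1.30 ± 1.61 at month 6, with 6 of 8 lower. At month 9 the mean difference was -0.53 ± 1.58, with 4 animals on each side. At month 15 it was 0.82 ± 1.04, with 7 of 8 higher. The month 0 value of PA8001, 3.46, is the highest of that month and comes from 5 internal counts and 0 5' counts, so it is set by the added 0.5. Without that library the mean differences over 7 animals were -0.78 at month 3, -0.90 at month 6, -0.68 at month 9 and 0.84 at month 15. With the main-sequence 5' fragments in place of the A6G ones, the difference from month 0 was -0.81 ± 1.75, -1.0 ± 1.67 and -0.52 ± 1.77 at months 3, 6 and 9, with 6 of 8 animals lower each time. At month 15 it was 0.86 ± 1.17, with 5 higher and 3 lower. Summed over animals there were 4.10 internal counts per 5' count at month 0, 2.57 at month 3, 2.61 at month 6, 3.50 at month 9 and 9.44 at month 15. The ratio holds the fragments that were selected and was given no test.

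**Figure D4:**
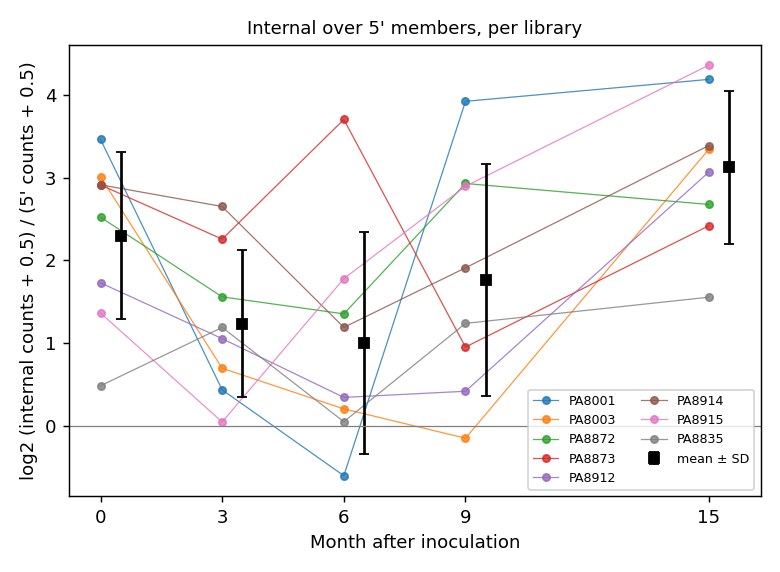
Log2 ratio of summed internal to summed 5' counts in each library, by month, with 0.5 added to both counts. Lines are animals and black squares the mean ± SD of 8, lowest at month 6 (1.00) and highest at month 15 (3.12).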

How the data were processed

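Serum RNA of 8 baboons at 5 times was sequenced after ligation of adapters to both ends, with molecular identifiers added at cDNA synthesis, per the labels' protocols. The authors deposited one table of whole-number counts per tRNA fragment and library, not normalized. No source used here names the aligner or says whether identifiers were collapsed. The submitters' processing notes list edgeR, limma and R 4.5.0. Lines without a fragment name (1614, 0.0805% of counts) were left out. The limits given where a fragment had no count cover counting error only. The SE of edgeR and the SD over animals also hold the spread between animals.

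Counts were scaled by TMM, filtered with filterByExpr (minimum count 10) and tested with edgeR 4.0.16 (quasi-likelihood, R 4.3.3), with month and animal as terms over all 40 libraries and Benjamini-Hochberg adjustment at 0.05. Animals pair the libraries, since each gave serum at every month; deviations from the monthly mean correlated by 0.187 on average within an animal and by -0.025 between animals. DESeq2 1.42.0, limma-voom (limma 3.58.1), other scalings, filters and left-out libraries were tried. The code was checked on simulated data. The members and lists were chosen with earlier results of these data known. Named fragments are the 2 reference fragments, the 5 most abundant members of each set, members called in a comparison, and the 3 fragments most like each reference.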

Additional observations from a re-analysis of the deposited data

Results flagged for a closer look

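The values of 5 measures were checked month by month for a library far from the others (the 2 named fragments, both sums and the log2 ratio; 25 groups of 8), and 3 groups held one; chance gives about 1 in 20. For tRF-25-MBQ4NKKQBR at month 0, PA8873 had 2.99 CPM and the next library 1.39. For the summed internal fragments, PA8873 at month 6 had 51.9 CPM and the next 21.5, and PA8001 at month 9 had 58.8 CPM and the next 29.4.

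The difference of tRF-25-MBQ4NKKQBR from month 0 was larger at month 15 than at month 3, by a log2 of 1.71, and larger than at month 6, by 1.79, in edgeR's test of the months against each other. Both share the month 15 libraries on which the fragment was selected and through which it largely passed the filter on low counts.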

How the results depend on the processing

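Calls of members at month 15 depended on the processing. Against month 0 (1 called) none was called with library totals only, no filter on low counts, a minimum count of 30, limma-voom, limma-voom with robust moderation, only the 2 months compared, with PA8001 and PA8003 left out at month 15, or without the month 0 library of PA8001 (0 each), and DESeq2 called 2. Against month 3 (2 called) there was 1 with library totals only, median-of-ratios size factors, a minimum count of 30, limma-voom in both forms or no replicate block, and 0 with no filter, only the 2 months compared or without the 2 month 15 libraries. DESeq2 and the fit without the month 0 library of PA8001 also called tRF-16-MBQ4NKD against month 3. Against month 6 (3 called) there was 1 with a minimum count of 30 and 1 without the 2 month 15 libraries. DESeq2 also called tRF-17-MBQ4NKJ there. With no filter the count was also 3, but tRF-21-MBQ4NKKQB and tRF-24-MBQ4NKKQ0V were called in place of tRF-18-MBQ4NKDJ and tRF-25-MBQ4NKKQBR. Against month 9 (1 called) there were 0 with a minimum count of 30 and 0 without the 2 libraries, and 2 with DESeq2 and with limma-voom in both forms. Whether tRF-16-MBQ4NKD, called against months 6 and 9 in the main fit, passed the filter at a minimum count of 30 is not given here. With no filter the 1 called was tRF-20-MBQ4NKKQ in place of tRF-16-MBQ4NKD. Leaving out 1 animal at a time gave 0 to 1 against month 0, 0 to 2 against month 3, 2 to 3 against month 6 and 0 to 3 against month 9. The month 0 call was lost without PA8001, PA8003, PA8873, PA8912, PA8914 or PA8915, and the month 9 call without PA8003. Without the replicate block (animal), the counts of members called were 1, 1, 3 and 1 against months 0, 3, 6 and 9. These counts are given without the share of all fragments called under each alternative, so they do not show a change particular to the members. The cause was not tested.

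tRF-25-MBQ4NKKQBR was past the threshold in 5, 4 and 12 of 19 alternatives against months 0, 3 and 6; in 4 of the 19 (a minimum count of 30, only the 2 months compared, without PA8001, without PA8873) it did not pass the filter on low counts. The difference of tRF-30-FPR8LPMBQ4NK between months 15 and 9 turned to 0.10 without PA8912, and leaving out 1 animal at a time gave -0.35 to 0.10. The log2 ratio at months 3 and 6 stayed below month 0, and at month 15 above it, under every alternative run; at month 9 it turned to 0.45 with the 2 named fragments alone and 0.08 with spanning fragments only. The ratios by anticodon or against the main sequence, and the robust form of limma-voom, were added after seeing the data. Depth limits both named fragments, with medians at month 0 of 6.5 counts for the 5' fragment and 1.5 for the internal one.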
